A study of Arabidopsis thaliana with 40 samples.

Results

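LHCB4.1, LHCB4.3, RCA and HEMA2 are 4 nuclear genes of photosynthesis and tetrapyrrole synthesis that were followed in the shoot apex of Arabidopsis thaliana as plants were induced to flower. They were chosen by name, each through the 1 probe set that the platform's probe-to-gene table gives it, and they are 4 of the 13356 genes that have a probe set of their own in that table. Their loci are AT5G01530 for LHCB4.1, AT2G40100 for LHCB4.3, AT2G39730 for RCA and AT1G09940 for HEMA2.

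The series holds 40 ATH1 arrays of total RNA from the shoot apex, 2 replicate arrays in each of 20 groups of genotype and day. All plants, controls included, were kept at 21 °C for 30 days under short days (9 h light, 15 h dark). Long days (16 h light, 8 h dark) followed, and apices were collected at day 0 and on days 3, 5 and 7 of long days. There were 5 genotypes: 2 wild types, Columbia (Col) and Landsberg erecta (Ler), and 3 mutants carrying the alleles lfy-12, co-2 or ft-2. LEAFY (LFY) encodes a transcription factor that gives a meristem floral identity, CONSTANS (CO) a regulator that reports long days in the leaf, and FT a protein that moves from the leaf into the apex. The labels do not name the background of each mutant; lfy-12 is known as an allele in Col, and co-2 and ft-2 are known as alleles in Ler, so lfy-12 was compared with Col and the other two mutants with Ler. No probe set is assigned to the mutated genes in the probe-to-gene table, so they gave no check of the genotypes.

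CP29 is a minor antenna protein that sits between the outer light-harvesting complexes and the core of photosystem II and passes excitation energy inwards. LHCB4.1 and LHCB4.3 both encode forms of it, LHCB4.1 being a main leaf form and LHCB4.3, also known as LHCB8, a divergent form. RCA encodes Rubisco activase, which uses ATP to free the active site of the carbon-fixing enzyme Rubisco from bound sugar phosphates. HEMA2 encodes an isoform of glutamyl-tRNA reductase, the first committed enzyme of the path to heme and chlorophyll, and is known from non-green tissue such as roots, whereas HEMA1 is the main isoform of green tissue. LHCB and RCA transcripts are also known to vary over the day.

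Values are the deposited log2 signals, and a difference of 1 is a doubling. Array medians lay between 6.91 and 7.07, and replicate arrays correlated at 0.990 to 0.997. Among 12 markers of the shoot meristem, 2 were measured, CLV3 and UFO. CLV3, a signalling peptide of stem cells, lay between 5.23 and 6.47 with a median of 5.81, and UFO between 5.28 and 7.64. Both lay above the 3.60 to 3.78 of the bacterial control probe sets. Of 12 markers of leaf primordia, 4 were measured: YAB3 at 8.60 to 9.28, PHV at 9.62 to 10.18, YAB5 at 6.22 to 7.32 and YUC4 at 6.95 to 7.96. No marker of the vascular, epidermis and root lists had a probe set listed. On 3 arrays, a share of transcripts typical of the other accession was estimated: 8.78% on replicate 2 of lfy-12 at day 5, 5.59% on replicate 1 of co-2 at day 3 and 4.11% on replicate 1 of ft-2 at day 0, against -1.49% to 0.639% on the other 37. Nothing in the labels says that replicates were separate plantings, so p-values measure the spread between these samples, which may be technical. In RNA of a whole apex, fewer cells of a type and less RNA per cell cannot be told apart.

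The genes differed in what they varied with. Genotype accounted for 97.8% of the sum of squares of HEMA2 over the 40 arrays, and day for 0.291%. For LHCB4.3, day accounted for 48.6%, genotype for 31.4% and the spread between replicates for 6.39%. For LHCB4.1, the shares were 45.2% for day, 18.1% for genotype and 15.7% for replicates. RCA had 38.1% for day, 11.2% for genotype and 30.1% for replicates, the highest replicate share of the 4. Over all probe sets, the median shares were 29.6% for genotype, 11.6% for day and 26.1% for replicates.

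**Figure D1:**
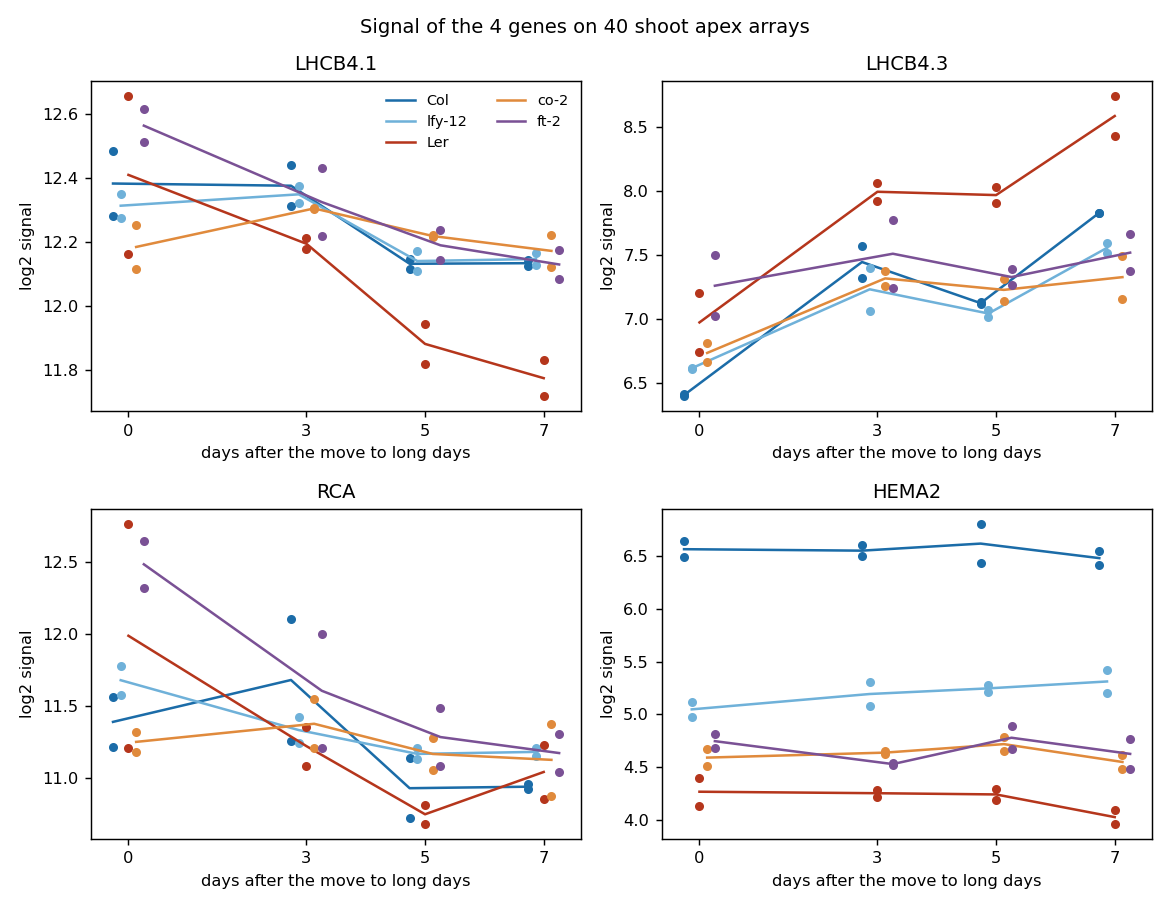
Deposited log2 signal (vertical axis) of LHCB4.1, LHCB4.3, RCA and HEMA2 by day after the move to long days (horizontal axis), with points for single arrays and lines through the means of 2 arrays in each genotype. LHCB4.3 climbs most in Ler, from 6.97 to 8.59, while HEMA2 keeps Col near 6.53 and Ler near 4.2 on all days.

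The question put to the time course was which genes differ between day 0 and later days in long days. Averaged over the 5 genotypes, LHCB4.3 rose and LHCB4.1 and RCA fell by day 7, while HEMA2 was not called (limma, Benjamini-Hochberg adjusted p under 0.05). Thus 3 of the 4 genes were called at day 7, where 36.2% of all probe sets were called. At day 5 the same count was 3 of 4 against 31.4% of all probe sets, and at day 3 it was 1 of 4, LHCB4.3, against 21.8%. With calls this common, the count of 4 genes says little by itself, and the sizes and the courses follow gene by gene. All contrasts with day 0 in a genotype share its day 0 arrays.

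LHCB4.3, the divergent CP29 gene, was the gene that rose. In Ler its arrays read 7.20 and 6.74 at day 0, 7.93 and 8.06 at day 3, 8.03 and 7.91 at day 5, and 8.74 and 8.43 at day 7. In Col they read 6.41 and 6.40, 7.32 and 7.57, 7.12 and 7.13, and 7.83 and 7.83 on the same days. In both wild types every later array lay above both day 0 arrays, and day 7 lay above all earlier days. In lfy-12 the values were 6.61 and 6.62 at day 0, 7.40 and 7.06 at day 3, 7.01 and 7.07 at day 5, and 7.52 and 7.60 at day 7. In co-2 they were 6.81 and 6.66, 7.26 and 7.38, 7.31 and 7.14, and 7.49 and 7.16. In these mutants, too, no later array overlapped day 0. In ft-2 they were 7.02 and 7.50, 7.78 and 7.24, 7.27 and 7.39, and 7.66 and 7.37, so that in ft-2 all later days overlapped day 0.

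By day 7, LHCB4.3 had risen by 1.61 ± 0.17 (limma SE, n = 2 arrays per group) in Ler, a 3.06-fold rise with an adjusted p of 1.43e-08 in limma. The rise in Col was 1.43 ± 0.17, or 2.69-fold (adjusted p = 2.82e-07, limma), and that in lfy-12 was 0.94 ± 0.17, or 1.92-fold (0.000216). In co-2 it was 0.59 ± 0.17, or 1.51-fold (adjusted p = 0.0219, limma), a call that was lost when co-2 day 0 replicate 2 or co-2 day 7 replicate 1 was left out. The difference in ft-2 was 0.26, with a 95% interval from -0.09 to 0.60 that also holds values near the one of co-2, and it was not called (adjusted p = 0.368, limma). LHCB4.3 was the gene called at day 7 in Col (1 of 4 genes, against 13.2% of all probe sets), in lfy-12 (1 of 4 against 12.8%) and in co-2 (1 of 4 against 9.12%). In Ler it was called with LHCB4.1 and RCA, 3 of 4 against 22.7%.

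Much of the rise of LHCB4.3 was present at day 3. At that day it stood at 1.04 above day 0 in Col, 1.02 in Ler and 0.62 in lfy-12, all called by limma, with adjusted p of 0.00036, 0.000204 and 0.0167. It was the 1 called gene of the 4 in each of these genotypes at day 3, where 2.68% of all probe sets were called in Col, 7.73% in Ler and 10.5% in lfy-12. The lfy-12 call was lost when either lfy-12 day 0 array or day 3 replicate 1 was left out. In co-2 the day 3 difference was 0.58 (adjusted p = 0.0583, limma) and in ft-2 it was 0.25 (0.515). In the mean of the 5 genotypes the difference from day 0 was 0.70 at day 3, 0.54 at day 5 and 0.97 ± 0.07 at day 7. Its day 7 value is a 1.95-fold rise (adjusted p = 1.89e-11, limma). Of the 22746 probe sets tested, 57 had a difference as high or higher at day 3 and 142 at day 7. Between day 3 and day 5 the mean difference was -0.16 and was not called (adjusted p = 0.176, limma), and between day 5 and day 7 LHCB4.3 rose by 0.43 (0.000195); these intervals were tested after the values were seen.

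The change of LHCB4.3 in co-2 and ft-2 was smaller than in Ler when the difference itself was tested. The change from day 0 to day 7 in co-2 differed from that in Ler by -1.02 ± 0.24 (adjusted p = 0.00712, limma). In ft-2 the difference from Ler was -1.36 ± 0.24 (adjusted p = 0.000233, limma). The co-2 call was lost when Ler day 7 replicate 1 was left out (-0.87, adjusted p = 0.067) or when co-2 day 7 replicate 2 was (-0.85, adjusted p = 0.0662), whereas the ft-2 call held with any single array left out. For co-2 against Ler, 2 of the 4 genes were called, LHCB4.3 and LHCB4.1, against 5.39% of all probe sets, and for ft-2 against Ler it was LHCB4.3 alone, 1 of 4 against 7.17%. Both comparisons share the Ler arrays.

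For lfy-12 against Col the difference in the change of LHCB4.3 was -0.48, with an interval from -0.97 to 0.00. It was not called (adjusted p = 0.877, unadjusted p = 0.051, limma), in a contrast that called 0.224% of all probe sets. The responses of the wild types to long days differed by 0.19, Ler minus Col, with an interval from -0.30 to 0.68, and those of ft-2 and co-2 by -0.33, with an interval from -0.82 to 0.15. Neither was called, with adjusted p of 0.847 and 0.844 in limma.

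LHCB4.3 also differed in level between genotypes. Over the 4 days it was 0.68 ± 0.08 higher in Ler than in Col (adjusted p = 1.14e-07, limma), and 0.57 higher at day 0 (0.0141), a call lost when either Col day 0 array or Ler day 0 replicate 1 was left out. Over the 4 days it was lower in co-2 and ft-2 than in Ler, with log2 differences of -0.73 and -0.48 and adjusted p of 1.74e-07 and 6.46e-05. Since the probes were designed on Col, transcript amount and probe match cannot be told apart in any level set between Ler and Col. At day 0 the differences from Ler were -0.24 in co-2 and 0.29 in ft-2, and neither was called. In order of group means, Ler day 7 came first at 8.59, followed by Ler day 3 at 7.99, Ler day 5 at 7.97 and Col day 7 at 7.83, and the last were lfy-12 day 0 at 6.62 and Col day 0 at 6.41. Of the 19 pairs of neighbours in that order, 7 had ranges of their replicates that did not overlap, among them Ler day 7 and Ler day 3.

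**Figure D2:**
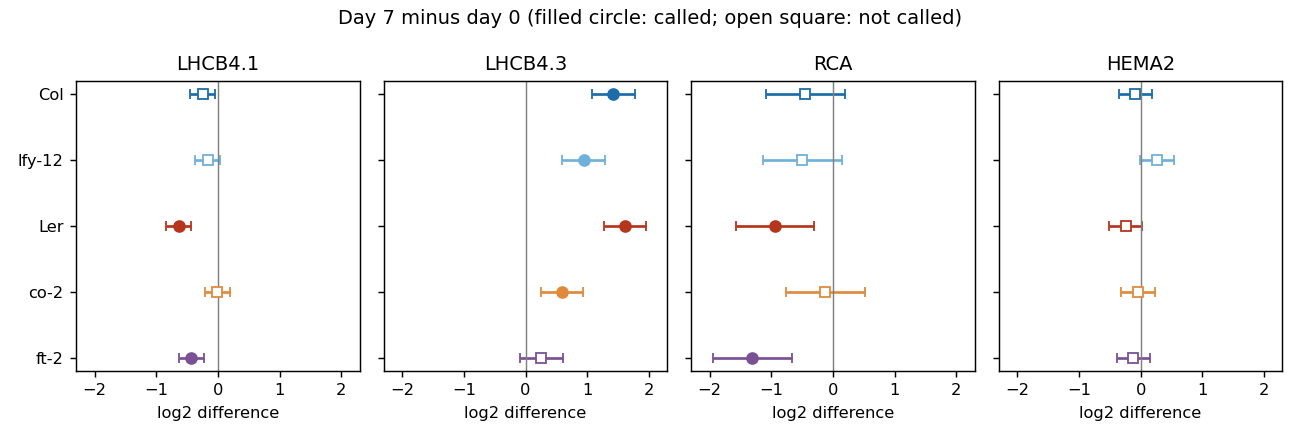
Log2 difference between day 7 and day 0 (horizontal axis) for LHCB4.1, LHCB4.3, RCA and HEMA2 in the 5 genotypes (vertical axis), with bars for 95% limma intervals, filled circles for called differences and open squares for those not called. LHCB4.3 ranges from 0.26 in ft-2 to 1.61 in Ler, and the estimates of LHCB4.1 and RCA lie below 0 in all 5 genotypes.

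LHCB4.1, a main leaf form of CP29, fell in Ler and ft-2. In Ler its arrays read 12.66 and 12.16 at day 0, 12.18 and 12.21 at day 3, 11.82 and 11.94 at day 5, and 11.83 and 11.72 at day 7. In ft-2 they read 12.51 and 12.61, 12.43 and 12.22, 12.14 and 12.24, and 12.17 and 12.08. In both genotypes the arrays of days 5 and 7 lay below both day 0 arrays. In Col they read 12.48 and 12.28, 12.31 and 12.44, 12.12 and 12.15, and 12.12 and 12.14. In lfy-12 they read 12.35 and 12.27, 12.38 and 12.32, 12.11 and 12.17, and 12.13 and 12.16. Here, too, days 5 and 7 lay below day 0, by less. In co-2 the arrays read 12.25 and 12.12, 12.30 and 12.31, 12.22 and 12.22, and 12.22 and 12.12, and days 0, 5 and 7 overlapped.

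The day 7 difference of LHCB4.1 was -0.64 ± 0.10 in Ler, a 1.55-fold fall (adjusted p = 1.56e-05, limma), and -0.43 ± 0.10 in ft-2, a 1.35-fold fall (adjusted p = 0.00435). At day 5 LHCB4.1 stood at -0.53 in Ler and -0.37 in ft-2 and RCA at -1.24 and -1.20, all called, which made 3 of 4 genes in Ler against 17.7% of all probe sets and 2 of 4 in ft-2 against 6.85%. The day 5 call of RCA in Ler was lost without Ler day 0 replicate 1 (-0.46) and in a fit of the Ler arrays alone. Those in ft-2 were lost without ft-2 day 0 replicate 2 or day 5 replicate 1, and that of LHCB4.1 also without day 5 replicate 2. The ft-2 call of LHCB4.1 at day 7 was lost without ft-2 day 0 replicate 2 or ft-2 day 7 replicate 2. In ft-2, LHCB4.1 and RCA were the 2 genes of 4 called at day 7, against 11.9% of all probe sets. The differences in Col and lfy-12 were -0.25 and -0.17, with adjusted p of 0.111 and 0.305, and that in co-2 was -0.01, with an interval from -0.22 to 0.19. In the mean of the 5 genotypes LHCB4.1 stood at -0.06 at day 3, which was not called, -0.26 at day 5 and -0.30 ± 0.04 at day 7 (adjusted p = 4.47e-05 and 3.65e-06, limma).

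The response of LHCB4.1 differed between co-2 and Ler when the difference itself was tested. It was higher by 0.62 ± 0.14 in co-2 than in Ler (adjusted p = 0.00599, limma). The call was lost when only the Ler and co-2 arrays were fitted (0.62, adjusted p = 0.0526) and without Ler day 0 replicate 1 (0.38, adjusted p = 0.0793). For ft-2 against Ler the difference was 0.20, with an interval from -0.09 to 0.49, and it was not called (adjusted p = 0.548, limma). At day 0 LHCB4.1 differed from Ler by -0.23 in co-2 and by 0.15 in ft-2, neither called (adjusted p = 0.192 and 0.446, limma). With single arrays left out, these day 0 differences ran from -0.47 to 0.02 in co-2 and from -0.09 to 0.40 in ft-2. At day 7 LHCB4.1 was lower in Ler than in Col by 0.36 (a difference of -0.36, adjusted p = 0.0108), and higher than in Ler by 0.40 in co-2 and 0.36 in ft-2 (adjusted p = 0.00599 and 0.0118), comparisons that share the Ler arrays. Each of these calls was lost without Ler day 7 replicate 2, and they were also lost without either Col array of that day, or without replicate 1 of co-2 or of ft-2, respectively. Fitted on only the genotypes compared, the calls of Ler against Col (adjusted p = 0.0581) and of ft-2 against Ler (0.0671) were lost as well. The order of groups ran from ft-2 day 0 at 12.56 to Ler day 7 at 11.77, and 3 of 19 pairs of neighbours had ranges that did not overlap.

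RCA, Rubisco activase, was lower at days 5 and 7 and had the widest gaps between replicates. In ft-2 its arrays read 12.32 and 12.64 at day 0, 12.001 and 11.21 at day 3, 11.08 and 11.49 at day 5, and 11.31 and 11.04 at day 7. In Ler they read 12.76 and 11.21, 11.09 and 11.36, 10.68 and 10.81, and 11.23 and 10.85. In ft-2 the later days lay below day 0, whereas in Ler the day 0 arrays were 1.56 apart and day 7 reached the lower of them. In Col they read 11.56 and 11.22, 11.26 and 12.10, 11.14 and 10.72, and 10.92 and 10.96. In lfy-12 they read 11.78 and 11.58, 11.24 and 11.42, 11.13 and 11.21, and 11.21 and 11.15. Days 5 and 7 lay below day 0 in these genotypes as well. In co-2 they read 11.32 and 11.18, 11.21 and 11.55, 11.05 and 11.28, and 11.37 and 10.88, and all days overlapped.

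By day 7 RCA had fallen in ft-2, with a log2 difference of -1.31 ± 0.31, or 2.48-fold (adjusted p = 0.00538, limma). This call was lost without ft-2 day 0 replicate 2 or ft-2 day 7 replicate 2, with differences between -1.47 and -1.15 over all single arrays left out. In Ler the difference was -0.94 ± 0.31 (adjusted p = 0.0267, limma). Without Ler day 0 replicate 1 it was -0.17 (adjusted p = 0.836), and the call was also lost without Ler day 7 replicate 2 (-0.75) and when the Ler arrays were fitted alone. In Col, lfy-12 and co-2 it was -0.45, -0.50 and -0.12, with adjusted p of 0.438, 0.324 and 0.885. When the lfy-12 arrays were fitted alone, the lfy-12 difference was called at day 7 (adjusted p = 0.00278, limma). In that fit it was also called at day 3 (-0.35, adjusted p = 0.0262) and day 5 (-0.51, adjusted p = 0.00477). In the mean of the 5 genotypes RCA stood at -0.31 at day 3 (adjusted p = 0.112), -0.70 at day 5 and -0.67 ± 0.14 at day 7, the last called with an adjusted p of 0.000312 (limma). No response of RCA was called as different between genotypes by limma, with 1 of the 5 pairs, ft-2 minus co-2 at -1.18, at an unadjusted p under 0.05. For co-2 against Ler the interval ran from -0.08 to 1.72. At day 0, RCA was 1.23 ± 0.31 higher in ft-2 than in co-2 (adjusted p = 0.0419, limma), a call lost when any of these 4 arrays was left out. None of the 19 pairs of neighbours in the order of RCA had ranges that did not overlap.

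Set against each other within arrays, the 3 genes gave the following differences. The change from day 0 to day 7 was greater in LHCB4.3 than in LHCB4.1 by 1.27 in the mean of the 5 genotypes, by 1.67 in Col, 1.11 in lfy-12, 2.25 in Ler, 0.60 in co-2 and 0.69 in ft-2. Against RCA the excess of LHCB4.3 was 1.63, and RCA changed by -0.37 relative to LHCB4.1. Each of these differences had the same sign in 5 of 5 genotypes. The pairs were chosen after the values were seen, so the differences are given as a description, with no test.

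HEMA2 differed between genotypes and was not called by limma between day 0 and a later day in any genotype, nor did it have an unadjusted p under 0.05 in any of these 15 contrasts. Over its 8 arrays it read from 6.41 to 6.81 in Col, with a median of 6.53, and from 4.97 to 5.43 in lfy-12, with a median of 5.21. In Ler it read from 3.97 to 4.40 (median 4.204), in co-2 from 4.49 to 4.79 (4.64) and in ft-2 from 4.49 to 4.89 (4.68). Col, lfy-12 and Ler thus shared no value with each other or with the remaining genotypes, while co-2 and ft-2 overlapped. The day 0 arrays of Col read 6.64 and 6.49, those of lfy-12 4.97 and 5.12, and those of Ler 4.14 and 4.40. The differences between day 7 and day 0 ran from -0.24 in Ler to 0.26 in lfy-12, and in the mean of the 5 genotypes the difference was -0.04, with an interval from -0.17 to 0.08. In the order of the 20 groups the largest gap, 1.17, lay between Col day 7 and lfy-12 day 7, and 4 of 19 neighbours had ranges that did not overlap.

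HEMA2 was lower in lfy-12 than in Col over the 4 days, with a log2 difference of -1.35 ± 0.07, or 2.55-fold (adjusted p = 2.94e-14, limma). It was the 1 gene of the 4 called in that comparison, against 13.4% of all probe sets, and 7 of the 22746 probe sets were lower by as much. The difference was -1.52 at day 0 and -1.17 at day 7, both called. The 10 measured genes nearest to HEMA2 on its chromosome, 5 on either side, differed by -0.17 to 0.05 between lfy-12 and Col. In limma 0 of these 10 were called, the lowest adjusted p being 0.145, and 1 had an unadjusted p under 0.05.

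HEMA2 was lower in Ler than in Col as well, with a log2 difference of -2.35 ± 0.07, or 5.11-fold (adjusted p = 1.11e-21, limma). For Ler against Col 3 of the 4 genes were called over the 4 days, RCA being the exception, against 43.3% of all probe sets. In co-2 and ft-2 HEMA2 was higher than in Ler by 0.43 and 0.47 (adjusted p = 1.39e-05 and 2.61e-06), and the mutants differed from each other by 0.05, with an interval from -0.09 to 0.18. Called in these comparisons were 3 of 4 genes for co-2 against Ler, where 35.5% of all probe sets were called, and 3 of 4 for ft-2 against Ler, against 37.6%. The levels of HEMA2 in Ler lay below the lower quartile of the arrays, which was 4.66 to 4.92, and close to the 3.60 to 3.78 of the bacterial controls. The fold between Ler and Col is thus a ratio to a signal near that floor and no exact measure of transcript amount. The medians of co-2 and ft-2, 4.64 and 4.68, lay close to that quartile, so the differences of these mutants from Ler are no exact measure either. As for LHCB4.3, transcript amount and probe match in Ler cannot be told apart. On the arrays with transcripts of the other accession, HEMA2 read 5.28 in lfy-12 at day 5, against 5.21 on the partner array, 4.62 in co-2 at day 3, against 4.66, and 4.68 in ft-2 at day 0, against 4.81. The part of those transcripts in the levels of HEMA2 was not tested on these single pairs.

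**Figure D3:**
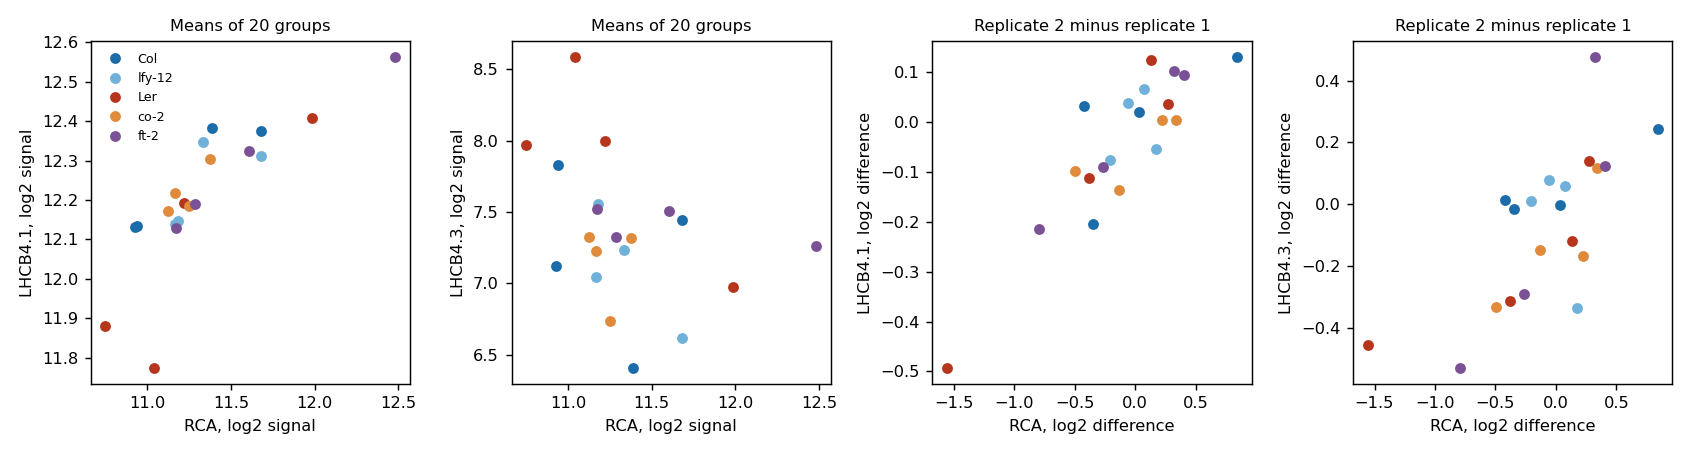
LHCB4.1 and LHCB4.3 (vertical axes) against RCA (horizontal axes), with a point for each of the 20 groups, coloured by genotype; the left pair of panels shows mean log2 signals and the right pair log2 differences of replicate 2 minus replicate 1. LHCB4.3 runs against RCA across group means (Pearson r = -0.371) and with it across replicate differences (r = 0.717).

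LHCB4.1, RCA and LHCB4.3 differed together between replicates. Over the 20 group means LHCB4.1 and RCA correlated at 0.822, LHCB4.1 and LHCB4.3 at -0.642 and LHCB4.3 and RCA at -0.371. Over the 20 differences between replicates the correlations were 0.886, 0.713 and 0.717. Without the 2 groups farthest out in the first-named gene of each pair they were 0.722, 0.619 and 0.699. The replicate differences of HEMA2 correlated with those of the other genes at -0.167 to 0.124. Of the 24 other genes of the photosynthesis lists, 17 (70.8%) had replicate differences that correlated with those of RCA above 0.7, against 834 of 22745 probe sets (3.67%). The points share arrays and their normalization, and the hour of sampling is not in the labels; its part in these values was not tested.

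The genes whose pattern was most like each one were found by Pearson's correlation over the 20 group means, among 3211 or 3212 other genes whose group means had an SD of at least 0.2. For LHCB4.1 they were led by PSAE-1 (Pearson 0.957, Spearman 0.926) and PSAN (0.951 and 0.860), subunits of photosystem I. For RCA the first was SBPASE, sedoheptulose-bisphosphatase of the Calvin cycle (Pearson 0.962), which by Spearman's correlation (0.809) stood only at position 57.5, while the next gene, AT2G21530 (0.960), stood at position 2.5 (0.920). For LHCB4.3 the first was UFO (Pearson 0.921, Spearman 0.919), an F-box protein of young floral meristems, followed by AT5G10310 (0.920) and AT3G16330 (0.889). For HEMA2 they were AT1G24040 (0.985) and CKS (0.982), an enzyme that activates the sugar KDO for the cell wall. By Spearman's correlation, 2 of the first 5 remained among the first 5 for LHCB4.1, 3 for LHCB4.3, 2 for RCA and 0 for HEMA2. The points share genotype and day, and no p is given.

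UFO read 5.43 and 5.86 at day 0 in Ler and 7.43 and 7.64 at day 7, and it read 5.28 and 5.41 at day 0 in Col and 6.79 and 6.82 at day 7. In co-2 it read 5.68 and 5.53 at day 0 and 5.87 and 6.04 at day 7. In lfy-12 it read 5.35 and 5.31 at day 0 and 6.21 and 6.26 at day 7. Like LHCB4.3, UFO was higher at day 7 than at day 0 without overlap in Ler, Col, lfy-12 and co-2. In co-2 the UFO difference of 0.35, with an interval from 0.00 to 0.70, was not called (adjusted p = 0.244, limma). That of LHCB4.3, 0.59 with an interval from 0.25 to 0.94, was called, a call that rested on single arrays. The intervals overlapped, and the genes were not tested against each other. In ft-2 UFO read 6.06 and 5.47 at day 0 and 6.08 and 5.90 at day 7, and these overlapped.

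**Figure D4:**
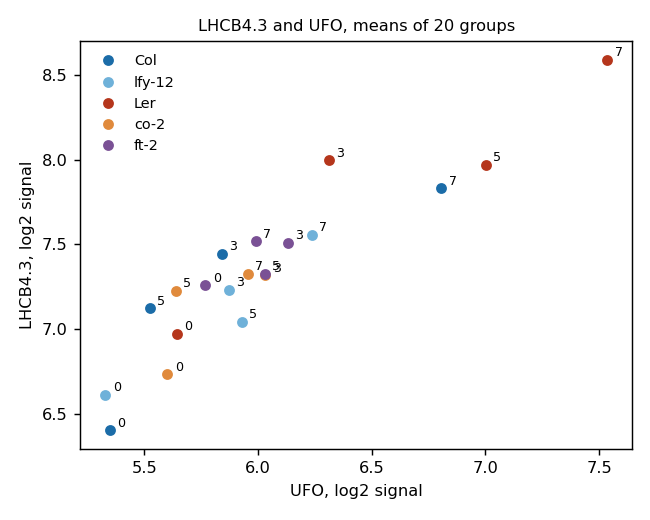
Mean log2 signal of LHCB4.3 (vertical axis) against that of UFO (horizontal axis) in the 20 groups of genotype and day, with 1 point per group of 2 arrays. The point of Ler day 7 lies farthest to the upper right, at 7.54 for UFO and 8.59 for LHCB4.3.

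The other genes of photosynthesis were taken from lists matched by symbol to 142 genes, of which 25 had a probe set of their own, the 4 genes included. The symbols FC1, FC2, GGT1 and PPOX each matched several loci, so the 142 may hold genes outside photosynthesis. None of those loci had a probe set. In the mean of the 5 genotypes at day 7, 14 of the other 21 were lower, none was higher (1 after quantile normalization, and 1 when any of 5 single arrays was left out) and 7 were not called, with 16 at an unadjusted p under 0.05, that is 66.7% lower against 15.7% of all probe sets. Their median difference was -0.28, against 0.02 over all probe sets. Of the 4 measured markers of leaf primordia, YAB5, a polarity gene, and YUC4, an enzyme of auxin synthesis, were lower in the same mean, by log2 differences of -0.30 and -0.29 (adjusted p = 9.71e-06 and 0.000178, limma), sizes near the -0.30 of LHCB4.1, while YAB3 (-0.04) and PHV (0.09) were not called. The summed signal of the 4 markers, as log2, was 10.61 to 10.90 over the 10 arrays of day 0 and 10.62 to 11.02 over those of day 7. Linear signals were summed, so PHV (median log2 9.91) and YAB3 (8.99) outweigh YUC4 (7.57) and YAB5 (7.00). The sum therefore says little about YUC4 and YAB5. By genotype, YAB5 and YUC4 were both lower in Col, lfy-12 and Ler. In co-2 limma called neither (-0.06 and -0.00), nor in ft-2 (0.13 and 0.12), where LHCB4.1, RCA and 13 of the 21 list genes fell and PHV was higher (0.31, adjusted p = 0.0338). The part of leaf tissue in these results was not tested further. In the mean of the 5 genotypes, the list genes that were lower included PORB, which makes chlorophyllide in the light (-0.64, adjusted p = 1.89e-09, limma). Others in that mean were HEME1, of the path to heme and chlorophyll (-0.56), CHLI2, a subunit of magnesium chelatase (-0.50), and PSAE-1 (-0.50). LHCB4.2, the remaining CP29 gene, differed by -0.28 ± 0.10 (adjusted p = 0.0208, limma), a call lost without Col day 0 replicate 1 or co-2 day 7 replicate 2. LHCB4.3 was thus the one of the 3 CP29 genes that rose in the mean of the genotypes. Cross-hybridisation among the 3 was not tested.

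By genotype, calls among the other 21 genes were most numerous in Ler and ft-2. In Ler 13 of them were lower and none higher at day 7, 61.9% against the 10.9% of all probe sets that were lower, and in ft-2 likewise 13 were lower and none higher, against 6.65%. In Col HYH, a bZIP transcription factor of light responses, was higher, where 7.15% of all probe sets were higher, and HEME2 and PORB were lower, where 6.08% were lower. Calls in Col were thus 14.3% of the 21 against 13.2% of all probe sets, and the number lower ran from 1 to 4 over the alternatives. In lfy-12 PORB was lower, 4.76% against 5.08% of all probe sets lower, so the shares of Col and lfy-12 were near the background. In co-2 limma called none in either direction, with 3 at an unadjusted p under 0.05. These counts rested on single arrays: in Ler, 2 were lower without replicate 1 of day 0 and 4 without replicate 2 of day 7, and in ft-2, 1 was lower without ft-2 day 0 replicate 2 and 4 and 3 without either day 7 array. Fitted on the Ler arrays alone, 4 were lower in Ler. When the response of ft-2 was tested against that of co-2, limma called 0 of the 21, with 14 at an unadjusted p under 0.05. That contrast called 1 of 22746 probe sets. At day 0, 7 of the 21 were higher in ft-2 than in co-2, 33.3% against 1.12% of all probe sets higher, and at day 7 limma called 0 of them. The dependence of these day 0 calls on single arrays was not tested. LHCB4.2 stood at -0.89 in Ler (adjusted p = 0.00274; -0.25 without Ler day 0 replicate 1), -0.74 in ft-2 (0.0234) and 0.28 in co-2 (0.534). Its response in co-2 was higher than in Ler by 1.17 ± 0.31 (adjusted p = 0.0185, limma), and PSAE-1 was higher by 0.98 in the same test. Of the 21, 5 had a higher response in co-2 than in Ler, LHCB4.2, PSAE-1, PSB27, CHLM and PORB, and none a lower one, where 2.57% of all probe sets were higher. With replicate 2 of Ler left out, that count was 0 when the day 7 array was dropped and 14 when the day 0 array was, and it lay between these with each of the other Ler and co-2 arrays of these days left out. Without Ler day 0 replicate 1 the difference of LHCB4.2 was 0.53 and that of PSAE-1 was 0.45, neither of them called (adjusted p = 0.198 and 0.15, limma).

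**Figure D5:**
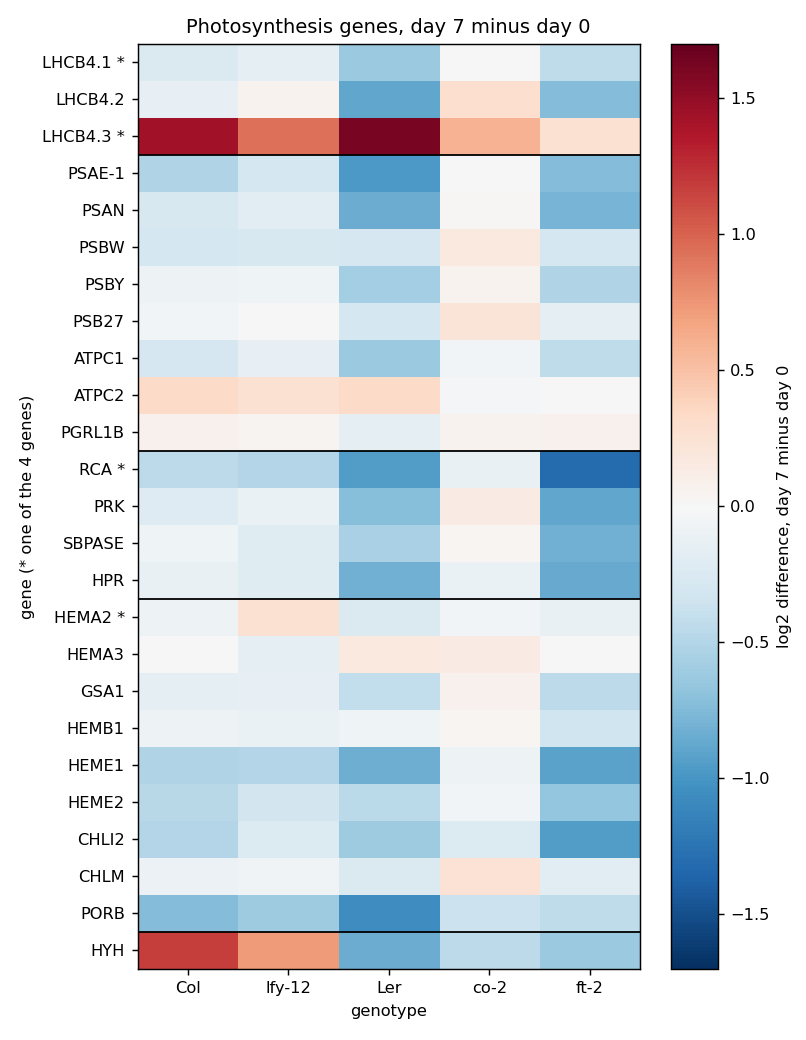
Log2 difference between day 7 and day 0 in each genotype (columns) for the 25 measured genes of the photosynthesis lists, shown as a colour scale in log2 units. LHCB4.1 and most others are lower in Ler and ft-2, and LHCB4.3 stands out as higher, up to 1.61 in Ler.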

How the data were processed

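RNA of shoot apices was measured on 40 ATH1 arrays, grouped by the genotype and day in their titles, which also number the replicates. The authors deposited 1 table of 22810 probe sets, whose values, 3.03 to 13.63, were read as log2 signal from their range; the normalization is not given in the sources used here. The values were used as deposited, without a pseudocount or a filter on low values. Without 64 control probe sets, 22746 remained for testing. The number of arrays limits the precision.

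Tests used limma (version 3.58.1, R version 4.3.3), fitting 20 group means to all 40 arrays (20 residual degrees of freedom), with empirical Bayes moderation and an intensity trend. Tests were two-sided, and calls needed a Benjamini-Hochberg adjusted p under 0.05 over all probe sets within each of 40 contrasts, 2 of which were added after the values were seen. Values after ± are limma standard errors, and n is 2 arrays per group. The smallest p of an exact test of 2 arrays against 2 is 0.333. The fit was tested on simulated data. The named genes were the 4 genes, the measured members of the lists of photosynthesis genes and apex markers, and the 5 genes most like each of the 4. These genes and lists were chosen with earlier results of these data known. The aliases HPR1 (an mRNA export gene), TPI (a cytosolic enzyme) and FDH (formate dehydrogenase, not the epidermal FIDDLEHEAD) were left out of the lists. Gene names came from the platform's table and RefSeq (TAIR10.1, used for names and neighbours). Replicate numbers were not used as pairs in the main fit. Alternatives were quantile normalization, a filter on low values, no trend, only the genotypes compared, a replicate block, each array left out, and the 3 arrays with other transcripts left out.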

Additional observations from a re-analysis of the deposited data

Results flagged for a closer look

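Some responses from day 0 to day 7 differed between a mutant and Ler by a test of the difference itself. The response of LHCB4.1 was higher in co-2 than in Ler by 0.624. The response of LHCB4.3 differed from that in Ler by -1.02 in co-2 and by -1.36 in ft-2. Among the other photosynthesis genes, the response in co-2 was higher than in Ler by 1.17 for LHCB4.2, 0.977 for PSAE-1, 0.52 for PSB27, 0.493 for CHLM and 0.689 for PORB. The response of HYH in Ler minus that in Col was -2.03. The comparisons with Ler share its arrays. With 2 arrays a group, no array was set against the spread of its own group here.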

How the results depend on the processing

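Leaving out single arrays gave 1280 values for the differences of the 4 genes. Of these, 1213 kept their side of the threshold, 42 lost a call and 25 gained one. Among values called in the main fit or after leaving out the array, 0 changed sign. Values called in neither were not counted for sign, and some did change it, such as RCA in Col at day 3 (-0.13 to 0.71). Of 940 values under the other alternatives, 919 kept their side, 12 lost a call and 9 gained one. HEMA2 between lfy-12 and Col and LHCB4.3 in the mean of the genotypes were called under all of them. Quantile normalization gave 0.11 for LHCB4.1 between co-2 and Ler over the 4 days (adjusted p = 0.102). Fitting only the genotypes compared gave 0.16 for the same difference (0.06), 0.62 for the LHCB4.1 response in co-2 against Ler (0.0526), -0.94 for RCA in Ler (0.138) and -0.50 for RCA in lfy-12 (0.00278, called).

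With single arrays left out, the day 7 difference of RCA ran from -1.72 to -0.17 in Ler and from -1.47 to -1.15 in ft-2, and that of LHCB4.1 in ft-2 from -0.49 to -0.38. For LHCB4.3 it ran from 0.43 to 0.76 in co-2. Against Ler, the co-2 response ran from 0.38 to 0.87 for LHCB4.1, from 0.0427 to 1.60 for RCA and from -1.25 to -0.79 for LHCB4.3, and the ft-2 response of LHCB4.1 from -0.045 to 0.45. The Ler response minus that of Col ran from -0.63 to -0.14 for LHCB4.1 and from -1.27 to 0.28 for RCA. Over the 4 days, RCA in ft-2 minus Ler ran from 0.19 to 0.58, LHCB4.1 in co-2 minus Ler from 0.0936 to 0.22, and LHCB4.3 in ft-2 minus co-2 from 0.19 to 0.32. LHCB4.3 at day 3 in co-2 was called after quantile normalization (0.66, adjusted p = 0.0239). PRK, a Calvin cycle kinase, stood at -0.72 in Ler at day 7 and ran from -1.44 to 0.0073 with single arrays left out, the latter without Ler day 0 replicate 1. Among the other photosynthesis genes, 14 were lower in the mean of the genotypes, with 13 to 17 as single arrays were left out. In all these cases the cause was not tested.

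Replicate differences of the 190 pairs of groups correlated from -0.502 to 0.404, with a median of 0.0116 and 52 above 0.1. Replicate numbers thus showed no common pairing across all groups, and pairing among some of the groups was not tested. With replicate number as a block, no call of the 4 genes was lost, and 1 was gained, LHCB4.1 in ft-2 minus co-2 at day 0 (0.38, adjusted p = 0.0486). With 2 arrays a group, differences smaller than the intervals given could not be detected.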

Other observations

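HYH, a bZIP transcription factor related to HY5 that acts in light responses, was measured by 1 probe set, and its values had opposite signs in the genotypes. Its day 7 difference was 1.18 ± 0.36 in Col (adjusted p = 0.0249, limma, n = 2 arrays per group) and 0.72 in lfy-12 (0.2). In Ler it was -0.85 (0.0922), with -0.63 for ft-2 (0.294) and -0.45 for co-2 (0.552). The response in Ler minus that in Col was -2.03 ± 0.51 (adjusted p = 0.0308, limma). It was -1.25 without Ler day 0 replicate 1 (adjusted p = 0.298), -1.49 without Col day 0 replicate 2 (0.269), and was not called either when any single day 7 array of Ler or Col was left out or when the Ler and Col arrays were fitted alone (0.119). The Col rise of HYH was 0.64 without Col day 0 replicate 2 (adjusted p = 0.461), and its call was also lost without either Col day 7 array. In Ler the HYH difference was -0.07 without Ler day 0 replicate 1 and -1.63 without replicate 2. Over the mean of the 5 genotypes the difference was 0.00. The list of regulators held 13 genes, of which HYH alone had a probe set.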
